A study of Mus musculus with 12 samples.

Results

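The RAS pathway regulators and effectors described here are 32 genes: exchange factors and adaptors, GTPase-activating proteins, the RAF-MEK-ERK kinases, the PI3K-AKT genes and the RAL genes. The RAS GTPases themselves are left out. Each gene was represented by the probe set, among those annotated to exactly 1 gene symbol, whose mean log2 signal over all 12 arrays was highest. Of the 32 genes, 31 had such a probe set among the 18193 genes of the array, and 29 were tested among 12083 genes that exceeded the array median on 3 or more arrays. Mapk3, which encodes the kinase ERK1, had no probe set under that symbol and was not analysed here.

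The RNA came from haematopoietic stem cells (HSCs) sorted by FACS from mouse bone marrow, and each of the 4 groups held 3 arrays that the labels call biological replicates. The groups were Nras GFPhigh (NrasG12D/+ mice, quiescent HSCs by the label), Nras GFP- (NrasG12D/+ mice, cycling HSCs), wild-type GFPhigh (wild-type mice, quiescent HSCs) and wild-type GFP- (wild-type mice, cycling HSCs). NrasG12D/+ mice carry 1 allele of Nras with an activating glycine-to-aspartate change. All mice of both genotypes drank doxycycline water for 6 weeks and were kept for 12 weeks without it. The GFP transgene and its promoter, how the Nras allele was switched on, the age of the mice and whether animals were pooled are not given in the sources used here. In designs of this kind GFP is made under doxycycline and then diluted at each division, so that bright cells are those that divided least.

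RAS proteins are switches that bind GTP when active. Exchange factors such as the SOS proteins, brought to activated receptors by adaptors, load them with GTP, and GTPase-activating proteins (GAPs) such as neurofibromin turn them off. Active RAS binds RAF kinases, which start the MEK-ERK cascade, the PI3K catalytic subunits, which act through AKT, and exchange factors for the RAL GTPases. In blood stem cells these routes carry signals from cytokine receptors such as KIT.

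Several measurements of the arrays bear on all values below. The median signal per array lay between 44 and 129.6 MAS5 units, although all arrays had been scaled to a trimmed mean of 500. By limma's array weights, 4 arrays were more uneven than the others, with weights of 0.308 to 0.522 against 0.903 to 2.46: replicates 1 and 2 of Nras GFPhigh, replicate 1 of Nras GFP- and replicate 2 of wild-type GFPhigh. The 3′ to 5′ signal ratio of Gapdh was 7.28 and 5.7 in replicates 1 and 3 of Nras GFPhigh and at most 4.48 elsewhere. Replicate 3 of every group stood apart in Xist, at 91.8 to 205.1 units, from the other 8 arrays, at 5773.4 to 11480.7. Eif2s3y, a gene of the Y chromosome, read 3876.6 to 4544.9 units on the replicate 3 arrays and 2.3 to 674.7 on the others. The 674.7 was on replicate 2 of Nras GFPhigh, where Xist read 10092.3. The sex of the mice was not used in the fit. Of 10 HSC markers, 8 were on the array, and their summed signal was 29212 to 38127 in Nras GFPhigh, 21011 to 26957 in Nras GFP-, 24496 to 34245 in wild-type GFPhigh and 22345 to 26839 in wild-type GFP-, with none at 0. The summed signal of 9 of 10 granulocyte markers was 5728 to 57195 in Nras GFPhigh, 4044 to 4627 in Nras GFP-, 467.1 to 11695 in wild-type GFPhigh and 1994 to 12799 in wild-type GFP-.

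Among the members, Pik3r1 stood out in GFPhigh HSCs: its signal averaged 9791 units over the 6 GFPhigh arrays and 6350 over the 6 GFP- arrays, and every GFPhigh array read above every GFP- array. In bulk RNA, fewer cells of a type and less RNA per cell cannot be told apart. No other member separated these arrays completely, where 0.571% of all genes tested did. No member, Pik3r1 included, passed the threshold, a Benjamini-Hochberg adjusted p under 0.05 in limma, in this comparison, and 0 of the 12083 genes did (0%). The smallest adjusted p of a member was 0.219, for Pik3r1. At an unadjusted p under 0.05 stood 3 of the 29 members (10.3%), against 8.87% of all genes, namely Pik3r1 and Rasgrp3 with a higher and Pik3cg with a lower signal in GFPhigh. Rasgrp3 passed the filter on low signal through 3 arrays that were all GFPhigh, so its higher value was required by the filter, and 2 members stand without it. The members' differences on the log2 scale had a median of -0.0025, beside 0.02 over all genes tested, with 14 members higher and 15 lower in GFPhigh. That is 48.3% of the members higher, beside 51% of all genes. Pik3cb, like Rasgrp3, passed the filter only through GFPhigh arrays, and both are counted among the members that were higher.

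Within Nras HSCs, GFPhigh over GFP-, 0 members passed limma's adjusted threshold and 0% of all genes did. Here 3 members (10.3%) had an unadjusted p under 0.05, against 12.2% of all genes: Pik3r1, higher in GFPhigh, and Shc1 and Rasa1, lower. The groups did not overlap for 5 members, Pik3r1 and Ksr1 above and Shc1, Araf and Pik3cg below, where 12.9% of all genes did not overlap. In wild-type HSCs, GFPhigh over GFP-, 0 members and 0% of all genes passed the adjusted threshold. No member had an unadjusted p under 0.05 there, against 2.2% of all genes, and only Pik3r1 of the 29 did not overlap, against 11.1% of all genes. The median difference of the members was 0.15 in Nras HSCs, with 17 higher and 12 lower, and 0.32 in wild-type HSCs, with 22 higher and 7 lower. Over all genes tested it was 0.08 in Nras HSCs and -0.03 in wild-type HSCs. Higher in GFPhigh were 58.6% of the members beside 53.2% of all genes in Nras HSCs, and 75.9% beside 47.8% in wild-type HSCs. The members counted as higher in each genotype include Rasgrp3 and Pik3cb, which passed the filter only through GFPhigh arrays.

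The comparisons between genotypes were taken as Nras over wild-type. In GFPhigh cells Pik3cd, Ralb and Sos2 had unadjusted p values under 0.05 with lower signals in Nras, and Pik3r1 with a higher one, which is 4 of 29 members (13.8%) against 8.29% of all genes. Of all genes at that p, 383 were higher and 619 lower in Nras, so lower values were the more frequent there too. The groups did not overlap for 4 members there, Rasgrp2 above and Sos2, Pik3cd and Ralb below, where 12.5% of all genes did not. In GFP- cells 0 members had an unadjusted p under 0.05, against 4.39% of all genes, and 3 did not overlap, Nf1 and Shc1 above and Sos2 below, against 10.8% of all genes. In both populations together 3 members (10.3%) had an unadjusted p under 0.05, against 7.78% of all genes: Rasgrp2, higher in Nras, and Sos2 and Ralb, lower. Of all genes at that p, 321 were higher and 619 lower. No member separated all 6 Nras from all 6 wild-type arrays, and 0.372% of all genes did. No member passed limma's adjusted threshold, the smallest adjusted p being 0.5 in GFPhigh, 0.983 in GFP- and 0.597 in both populations. The shares of all genes that passed were 0% in GFPhigh, 0% in GFP- and 0.00828% in both populations. The 1 gene behind that last share, Gem, encodes a RAS-related GTPase, is not a member and is named after its values were seen. Its Nras over wild-type difference was 2.94 ± 0.38 on the log2 scale (SE, adjusted p = 0.0359 in limma), and with the replicate number as a block 0 genes passed.

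The members' median genotype difference was -0.28 in GFPhigh, beside -0.09 over all genes, with 10 members higher and 19 lower in Nras. It was -0.16 in GFP-, beside -0.17 over all genes, with 14 members higher and 15 lower. Over both populations it was -0.15, the same to 2 decimals as over all genes, with 10 members higher and 19 lower. Higher in Nras were 34.5% of the members beside 46.1% of all genes in GFPhigh. The shares were 48.3% beside 40.6% in GFP- and 34.5% beside 40.6% over both populations. The members' counts of direction depended on the scaling of the arrays. Centring each array on its median moved the genotype difference of the median gene by 0.30 in GFPhigh, 0.34 in GFP- and 0.32 in both populations, and quantile normalization moved it by 0.08, 0.18 and 0.14. After median centring 15 members were higher in Nras and 14 lower in GFPhigh, 21 higher and 8 lower in GFP-, and 18 higher and 11 lower in both populations. After quantile normalization the counts were 11 higher and 18 lower in GFPhigh, 17 and 12 in GFP-, and 14 and 15 in both populations.

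The interaction, which asks whether the GFPhigh over GFP- difference was larger in Nras than in wild-type HSCs, had 0 members and 0% of all genes past the adjusted threshold, with a smallest adjusted p of 0.956 among members. At an unadjusted p under 0.05 stood 3 members (10.3%), Shc1, Pik3cd and Pik3r1, against 4.68% of all genes. The 2 comparisons between genotypes share no array with each other, but each shares its arrays with the comparisons between populations.

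**Figure D1:**
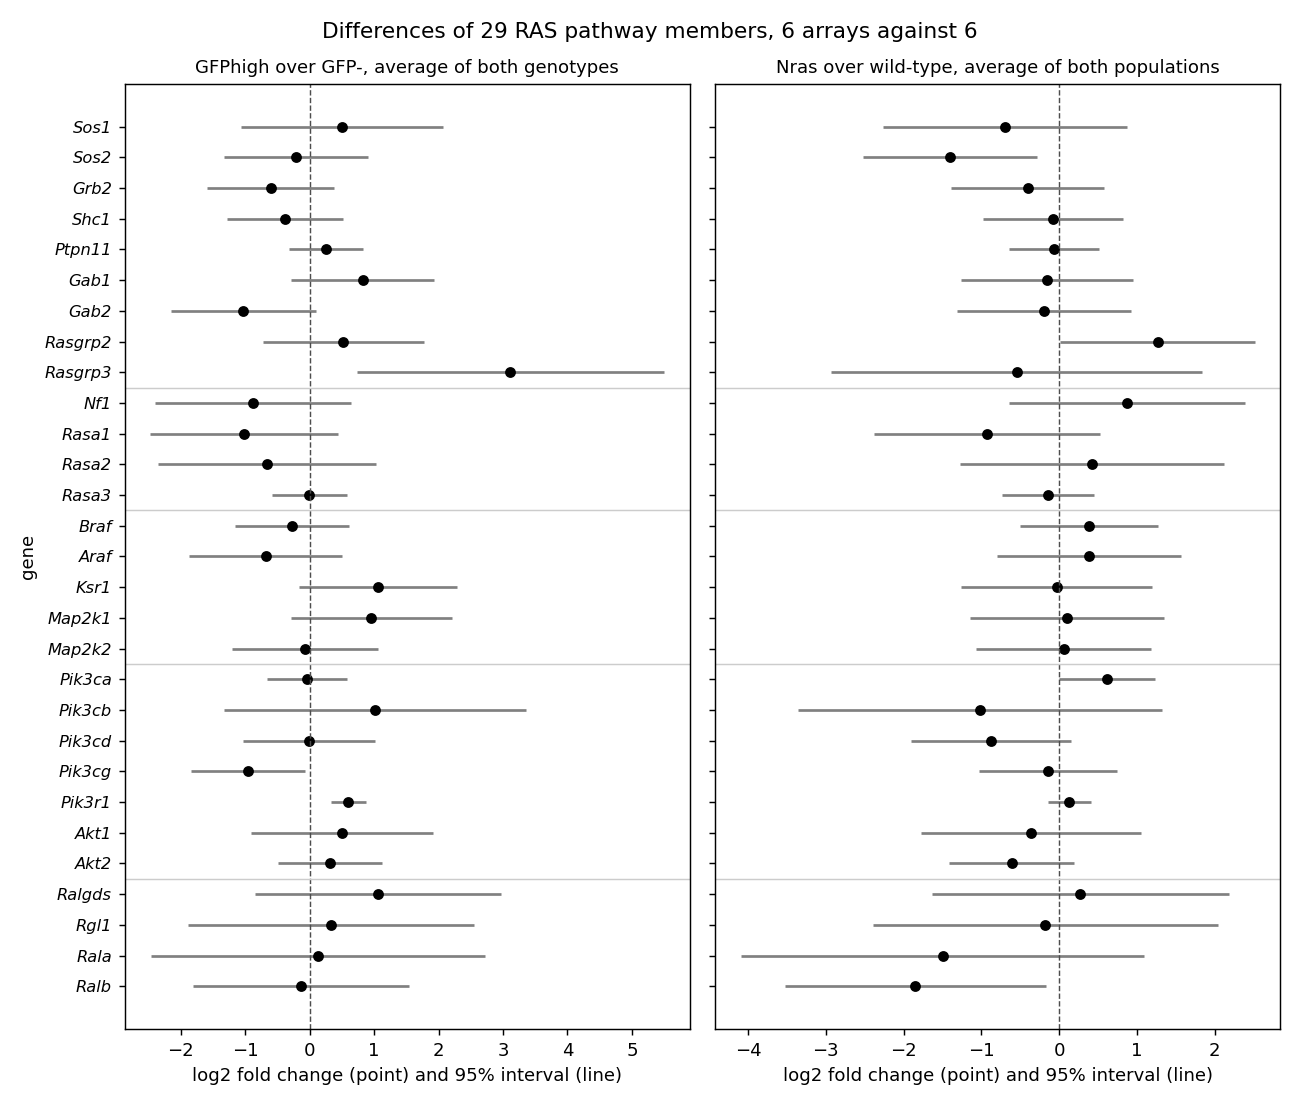
Log2 fold change of the 29 tested members over all 12 arrays, GFPhigh over GFP- averaged over both genotypes (left) and Nras over wild-type averaged over both populations (right), with points for the limma estimate and lines for its 95% interval. The interval of Pik3r1 on the left is the narrowest and lies between 0.33 and 0.88, while Rasgrp3 has the highest estimate, 3.11 ± 1.10 (SE). Rasgrp3 and Pik3cb passed the filter only through GFPhigh arrays, so their estimates on the left follow partly from the filter.

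Among the PI3K-AKT genes, all 7 were tested. Pik3r1 encodes the main regulatory subunit of class I PI3K, which stabilises the catalytic subunits, holds them inactive and docks them on phosphorylated receptors and adaptors. It read 13204, 12119 and 8399 units in Nras GFPhigh, against 5472, 6576 and 5948 in Nras GFP-. In wild-type HSCs it read 8540, 9065 and 7418 units in GFPhigh, against 5671, 7262 and 7173 in GFP-. The lowest GFPhigh array of each genotype was above all GFP- arrays of both, and replicates 1 and 2 of Nras GFPhigh were the highest of the 12. The GFPhigh over GFP- difference was 0.88 ± 0.18 on the log2 scale in Nras HSCs (SE, adjusted p = 0.13 in limma) and 0.32 ± 0.18 in wild-type HSCs (adjusted p = 1). Averaged over both genotypes it was 0.60 ± 0.13 (adjusted p = 0.219), and the difference between genotypes of that difference was 0.56 ± 0.26 (adjusted p = 0.956).

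The other probe sets of Pik3r1 read the same direction. With both genotypes averaged, its 4 probe sets differed by 0.60, 0.52, 0.95 and 1.18 on the log2 scale, all higher in GFPhigh in a fit of all 23128 probe sets tested. None passed the adjusted threshold, with limma's adjusted p at 0.273, 0.563, 0.365 and 0.484 in the same order, and all 4 had an unadjusted p under 0.05. A second probe set, the one with a difference of 0.95, also read above all 6 GFP- arrays in all 6 GFPhigh arrays, at 7533, 3656 and 3725 units in Nras GFPhigh and 4528, 2956 and 3457 in wild-type GFPhigh, against 2429, 2310 and 1519 in Nras GFP- and 2111, 1959 and 2617 in wild-type GFP-. Probe sets of 1 gene read the same RNA and are not replicates of each other. Pik3r1 was the only one of the 23 members with several tested probe sets whose probe sets all had an unadjusted p under 0.05 in this comparison.

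The arrays on which Pik3r1 read highest differed in other ways too. Replicates 1 and 2 of Nras GFPhigh are both among the 4 uneven arrays, and they had the highest granulocyte marker sums, the granulocyte protein gene S100a8 for example reading 11810, 11840 and 1750 units in Nras GFPhigh. Markers of some other cells, though not of all, were high in Nras GFPhigh as well. T-cell sums were 372.9 to 1370.2 there and at most 354.4 elsewhere, and endothelial and stromal sums 3299 to 7168 there, 290.4 to 3882 in Nras GFP- and 678.6 to 2587 in wild-type HSCs. Monocyte and macrophage sums were 3770.1 to 10850.1 in Nras GFPhigh and at most 4848 elsewhere. Megakaryocyte sums, by contrast, were 902.6 to 2157.7 in Nras GFPhigh and 2001.8 to 4770.5 in Nras GFP-. Erythroid sums were 128.3 to 2384.4 in Nras GFPhigh and 347 to 5076.1 in Nras GFP-. The part of such cells in the result was not tested. Without the 4 uneven arrays the difference averaged over both genotypes was 0.34 (adjusted p = 0.396), and in Nras HSCs, then with 1 GFPhigh array taken to vary like the other groups, it was 0.43 (adjusted p = 0.502). Without replicate 3 of Nras GFPhigh, by contrast, Pik3r1 passed, at 0.70 over both genotypes (adjusted p = 0.0426) and 1.08 in Nras HSCs (adjusted p = 0.0173). That array is the one of its group that stood apart in Xist and Eif2s3y. The Nras over wild-type difference of Pik3r1 in GFPhigh, 0.41 ± 0.18 (adjusted p = 0.589), turned to -0.04 under quantile normalization and to -0.10 for another of its probe sets.

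**Figure D2:**
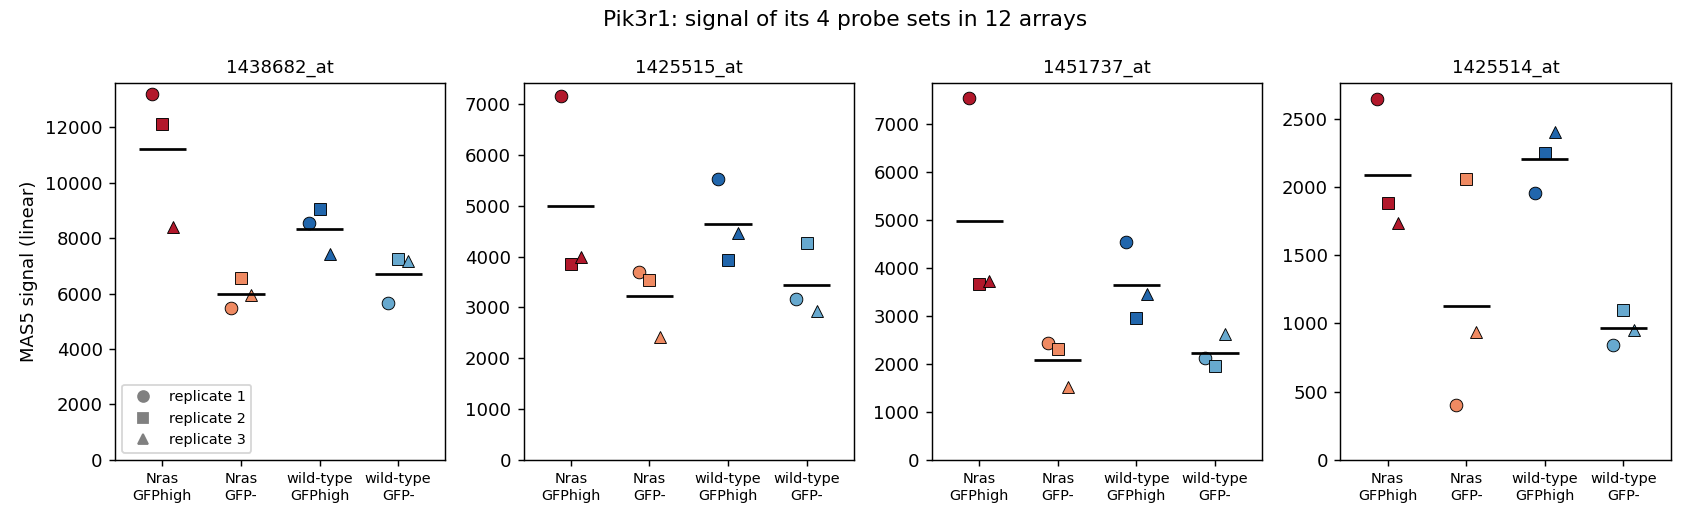
MAS5 signal on a linear axis of the 4 tested probe sets of Pik3r1 in each of the 12 arrays, by group, with marker shapes for replicates and bars for the mean of 3 arrays. In all 4 panels the mean of Nras GFPhigh is above that of Nras GFP- and the mean of wild-type GFPhigh is above that of wild-type GFP-.

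Pik3r1 has alternative start sites, and the 250 bases before 2 of them are shown because it is the one member with several probe sets that all had an unadjusted p under 0.05 on the same side in GFPhigh over GFP-. Both come from RefSeq's promoters on GRCm38.p6, minus strand, the upstream start site at chr13:101768218-101768467 and the downstream one at chr13:101692631-101692880. They are written 5′ to 3′ along the gene, and capitals mark GC boxes, the letters GGGCGG.
Pik3r1 upstream start: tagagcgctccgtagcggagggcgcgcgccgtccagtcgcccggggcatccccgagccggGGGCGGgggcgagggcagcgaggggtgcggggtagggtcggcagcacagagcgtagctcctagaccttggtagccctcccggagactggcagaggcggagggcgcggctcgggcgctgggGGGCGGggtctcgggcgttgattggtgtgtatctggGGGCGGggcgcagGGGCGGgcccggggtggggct
Pik3r1 downstream start: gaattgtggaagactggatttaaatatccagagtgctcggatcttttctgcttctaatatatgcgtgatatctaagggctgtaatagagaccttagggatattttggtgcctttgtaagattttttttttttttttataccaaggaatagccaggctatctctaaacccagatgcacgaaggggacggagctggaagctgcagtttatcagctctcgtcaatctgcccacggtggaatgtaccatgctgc
The upstream window held 30 CG pairs and was 76.4% G and C, more CG pairs than 94.1% of the 32851 windows of 250 bases compared, whose median is 6 CG pairs and 52.4%. Its 4 GC boxes, all on the gene's strand, began 190, 70, 34 and 21 bases before the start, and 32.7% of all windows held at least 1 on either strand. The downstream window held 6 CG pairs, was 42.4% G and C and had no GC box. The core FOXO motif GTAAACA was on neither strand of either window and is in 3.17% of all windows. A match of letters is a description only, and which start site each probe set reads is not known here.

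Of the catalytic subunits, Pik3cd, whose delta subunit is the main PI3K catalytic form of white blood cells together with gamma, read 229.8, 690.1 and 289.4 units in Nras GFPhigh and 1174, 733 and 496 in Nras GFP-, against 1577, 1567 and 1047 in wild-type GFPhigh and 575, 1282 and 394 in wild-type GFP-. All 3 Nras GFPhigh arrays were below all 3 wild-type GFPhigh arrays, while the GFP- groups overlapped. The Nras over wild-type difference in GFPhigh was -1.94 ± 0.67 (SE, adjusted p = 0.5 in limma), and the interaction was -2.13 ± 0.95 (adjusted p = 0.956). Of its other probe sets, 2 gave -1.45 and -0.74 for the genotype difference in GFPhigh. The remaining one gave 0.78, and 0.66 for the interaction, both of the opposite sign.

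Pik3cg encodes the gamma catalytic subunit, which G-protein-coupled receptors activate. It read 1169.7, 1147 and 1515 units in Nras GFPhigh, against 6653, 1906 and 1932 in Nras GFP-, and 2054, 779.9 and 2830.3 in wild-type GFPhigh, against 3034, 3648 and 1816 in wild-type GFP-. All 3 Nras GFPhigh arrays were below the Nras GFP- arrays, and the wild-type groups overlapped. The difference averaged over both genotypes was -0.96 ± 0.41 (adjusted p = 0.55 in limma), and without the 4 uneven arrays -0.26. Its other tested probe set read the same direction, at -0.69.

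The other PI3K-AKT genes had no unadjusted p under 0.05 in the fit of genes. Pik3ca, the alpha catalytic subunit, read 3905.6, 2354 and 3191 units in Nras GFPhigh, against 1052, 2595 and 1964 in wild-type GFPhigh. Its Nras over wild-type difference was 0.82 ± 0.41 in GFPhigh (adjusted p = 0.633) and 0.62 ± 0.29 over both populations (adjusted p = 0.644 in limma). Its other 5 probe sets differed by 0.47, -0.14, -0.36, -0.67 and -2.63 over both populations, so 4 of 6 were lower in Nras and no direction is given. Akt1 and Akt2 encode the AKT kinases that PI3K products activate, and their GFPhigh over GFP- differences averaged over genotypes were 0.50 ± 0.65 and 0.31 ± 0.37. Pik3cb, the beta subunit, was above the array median in 3 arrays only, all GFPhigh, so its passing of the filter already required higher GFPhigh values and its difference is not read.

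Among the 11 exchange factors and adaptors, 9 were tested. Sos2, the close relative of the exchange factor Sos1, read 165.9, 405 and 430 units in Nras GFPhigh, against 752, 2133 and 730.3 in wild-type GFPhigh. In GFP- cells it read 197.5, 638.9 and 761 units in Nras, against 929, 765 and 1162 in wild-type. Within each population all Nras arrays were below all wild-type arrays, although Nras GFP- overlapped wild-type GFPhigh. The Nras over wild-type difference was -1.78 ± 0.73 in GFPhigh (SE, adjusted p = 0.566 in limma), -1.04 ± 0.73 in GFP- (adjusted p = 0.983) and -1.41 ± 0.52 over both (adjusted p = 0.597). The lowest and the highest values were on uneven arrays, and without the 4 such arrays the difference over both populations was -0.61. Sos1 itself read 196.6 to 3946 units in Nras GFPhigh alone, and its difference over both populations was -0.70 ± 0.73.

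Shc1 encodes an adaptor that receptors phosphorylate and that brings GRB2 and SOS to them. It read 711.9, 269.3 and 831.8 units in Nras GFPhigh, against 1664.5, 2033 and 1141 in Nras GFP-, and 826, 1689 and 1473 in wild-type GFPhigh, against 965, 654 and 653 in wild-type GFP-. The Nras groups did not overlap, GFPhigh being the lower, while in wild-type HSCs the groups overlapped with the higher mean in GFPhigh. The GFPhigh over GFP- difference was -1.53 ± 0.59 in Nras HSCs (adjusted p = 0.351 in limma) and 0.77 ± 0.59 in wild-type HSCs (adjusted p = 1). The interaction was -2.31 ± 0.83 (adjusted p = 0.956). Its other tested probe set had the same signs, at -0.61 in Nras HSCs and -1.38 for the interaction.

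The RASGRP proteins are a family of exchange factors. Rasgrp2 read 848, 726 and 945 units in Nras GFPhigh and 527, 2141 and 295 in Nras GFP-, against 233, 548 and 554 in wild-type GFPhigh and 174, 522 and 157 in wild-type GFP-. All Nras GFPhigh arrays were above all wild-type GFPhigh arrays, and in GFP- the genotypes overlapped. The Nras over wild-type difference over both populations was 1.26 ± 0.58 (adjusted p = 0.639 in limma), but its other 3 probe sets gave 1.80, -1.71 and -1.74, and the mean over its probe sets gave -0.10. Rasgrp3 read 33.7, 34.2 and 556.7 units in Nras GFPhigh, against 10.8, 2.3 and 39.4 in Nras GFP-, and 167.3, 359.7 and 32.8 in wild-type GFPhigh, against 8.5, 4.2 and 86.6 in wild-type GFP-. The 3 arrays that carried Rasgrp3 past the filter were all GFPhigh, so its GFPhigh over GFP- difference of 3.11 ± 1.10 over both genotypes (adjusted p = 0.494) follows partly from the filter and is given as a description.

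Rasgrp1 and Rasgrp4 did not pass the filter. Rasgrp1 was above the median of 1 array, replicate 2 of Nras GFPhigh, at 270.6 units, and read 5 to 71 elsewhere. The summed signal of 7 T-cell markers was 1370.2 on that array, the highest of the 12, and 113.9 to 354.4 in the other 3 groups. Of these markers Cd3e, Cd3g, Cd4 and Cd28 read highest there and Cd3d, Cd8a and Cd5 did not, and their part in the result was not tested. Rasgrp4 read 6 to 27.9 units and was above no array's median.

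The other 4 adaptors had no unadjusted p under 0.05 in any comparison in the fit of genes. Grb2, the adaptor that carries the SOS proteins, read 792.5, 278.3 and 392.1 units in Nras GFPhigh, against 1127, 695 and 1524 in Nras GFP-, a difference of -1.26 ± 0.64 (adjusted p = 0.455 in limma), with -1.08 for its other probe set. Ptpn11 encodes the phosphatase SHP2, which RAS signalling from many receptors needs, and its average difference between populations was 0.25 ± 0.27, with a 95% interval of -0.32 to 0.83. Its 3 probe sets ranged from -0.69 to 1.24 there. For Nras over wild-type they ranged from -3.14 to -0.20 in GFP- and from -2.07 to -0.05 over both populations. In each of these comparisons between genotypes 1 of the 3 had an unadjusted p under 0.05 in limma, and none passed the adjusted threshold. The docking proteins Gab1 and Gab2 had average differences of 0.82 ± 0.51 and -1.03 ± 0.52, and all 3 probe sets of each read the same direction as these. In wild-type HSCs 1 of the 3 Gab1 probe sets had an unadjusted p under 0.05 in limma, and none passed the adjusted threshold.

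The 4 GAPs were all tested. With both genotypes averaged, Rasa1, Nf1 and Rasa2 differed by -1.02, -0.88 and -0.66 and Rasa3 by -0.0025 on the log2 scale, GFPhigh over GFP-, none with an unadjusted p under 0.05. Other probe sets had the opposite sign, at 1.52 and 1.05 for Nf1 and 1.96 for Rasa2, so no direction is given for those genes. Rasa1, the GAP that docks on phosphorylated receptors, read 478.3, 96.4 and 3498.6 units in Nras GFPhigh, against 3624, 1494 and 2221 in Nras GFP-, and 1532, 2969 and 2199.8 in wild-type GFPhigh, against 1919, 2786 and 1729 in wild-type GFP-. The Nras GFPhigh arrays spread more widely than any other group, with replicates 1 and 2 below all others and replicate 3 among the highest. The GFPhigh over GFP- difference in Nras HSCs was -2.07 ± 0.95 (adjusted p = 0.408 in limma). Without replicate 3 of Nras GFPhigh it was -3.42 (adjusted p = 0.0406), without replicate 2 it was -0.82, and without the 4 uneven arrays it was 0.94. Its other probe sets gave 0.84 and -0.03.

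Nf1 encodes neurofibromin, whose loss in blood cells raises RAS-GTP. It read 587.4, 1992 and 516.5 units in Nras GFP-, against 397.4, 99 and 333.1 in wild-type GFP-, and the groups did not overlap. That difference was 1.84 ± 0.99 (adjusted p = 0.983 in limma). In GFPhigh Nf1 read 110.3, 140.8 and 827 units in Nras, against 97.1, 466.7 and 351.9 in wild-type, with overlap. Rasa3, a GAP of RAP1 and RAS that is known for a role in mouse blood formation, was among the steadiest members: it read 1404 to 2165 units in Nras GFPhigh, 1168 to 1829 in Nras GFP-, 1557 to 1807 in wild-type GFPhigh and 1544 to 2197.5 in wild-type GFP-. Its average difference between populations was -0.0025 ± 0.27, with a 95% interval of -0.59 to 0.59. Rasa2, by contrast, read 43.4 to 1569 units within wild-type GFPhigh.

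In the RAF-MEK-ERK branch 5 of 6 members were tested, and none had an unadjusted p under 0.05 in the fit of genes. Braf encodes the RAF kinase with the highest basal activity, and its chosen probe set read 4496, 2347 and 1482 units in Nras GFPhigh, against 4983, 1676 and 2063 in Nras GFP-, and 2608, 810.3 and 2098 in wild-type GFPhigh, against 3379, 1568 and 2335 in wild-type GFP-. All groups overlapped, and the Nras difference was -0.05 ± 0.58. Of its 8 tested probe sets 2 stood past an unadjusted p of 0.05 in Nras HSCs, in opposite directions. One read 1433, 912.7 and 759.9 units in Nras GFPhigh, against 46.8, 31.2 and 490.9 in Nras GFP-, a difference of 3.48 ± 1.35 (adjusted p = 0.382 in limma). The other read 145.5, 182.2 and 947.5 units in Nras GFPhigh, against 5083, 1619 and 363.8 in Nras GFP-, a difference of -2.30 ± 0.99 (adjusted p = 0.426). No direction is given for Braf in Nras HSCs. It was the only member whose probe sets disagreed in this way.

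Araf, a second RAF kinase, read 556, 723.8 and 296.7 units in Nras GFPhigh, against 3629.7, 801 and 1179 in Nras GFP-, without overlap, a difference of -1.61 ± 0.77 (adjusted p = 0.427 in limma), while 3 of its 5 probe sets were higher in GFPhigh. Ksr1 encodes a scaffold that holds RAF, MEK and ERK together, and read 302.1, 285.9 and 297.6 units in Nras GFPhigh, against 39.7, 115.1 and 198.7 in Nras GFP-. These groups did not overlap, and the difference was 1.61 ± 0.80 (adjusted p = 0.446), but 1 of its 3 probe sets gave -1.15. The MEK kinases Map2k1 and Map2k2 had average differences between populations of 0.96 ± 0.58 and -0.07 ± 0.52, and Map2k1 read 635 to 2630.5 units in wild-type GFPhigh, against 179 to 807 in wild-type GFP- (1.60 ± 0.82, adjusted p = 1 in limma).

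In the RAL branch all 4 members were tested, and their spread was wide. Ralb, a GTPase that acts on the exocyst and on survival signalling, read 33.1, 78.7 and 269.1 units in Nras GFPhigh, against 544.8, 1492 and 421.3 in wild-type GFPhigh. In GFP- it read 37.4, 434.1 and 603 units in Nras, against 275.2, 512.2 and 308.8 in wild-type. The genotypes did not overlap in GFPhigh and overlapped in GFP-. The Nras over wild-type difference was -2.98 ± 1.10 in GFPhigh (SE, adjusted p = 0.524 in limma) and -1.85 ± 0.78 over both populations (adjusted p = 0.609). Without the 4 uneven arrays these were -0.83 and -0.15. Rala, the relative of Ralb, read 3.2 to 1195 units within Nras GFP- and had the largest residual spread of the members. The RAL exchange factors Ralgds and Rgl1, which bind active RAS, had average differences between populations of 1.07 ± 0.88 and 0.33 ± 1.03, and Rgl1 read 19.1 to 2323 units within Nras GFPhigh.

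**Figure D3:**
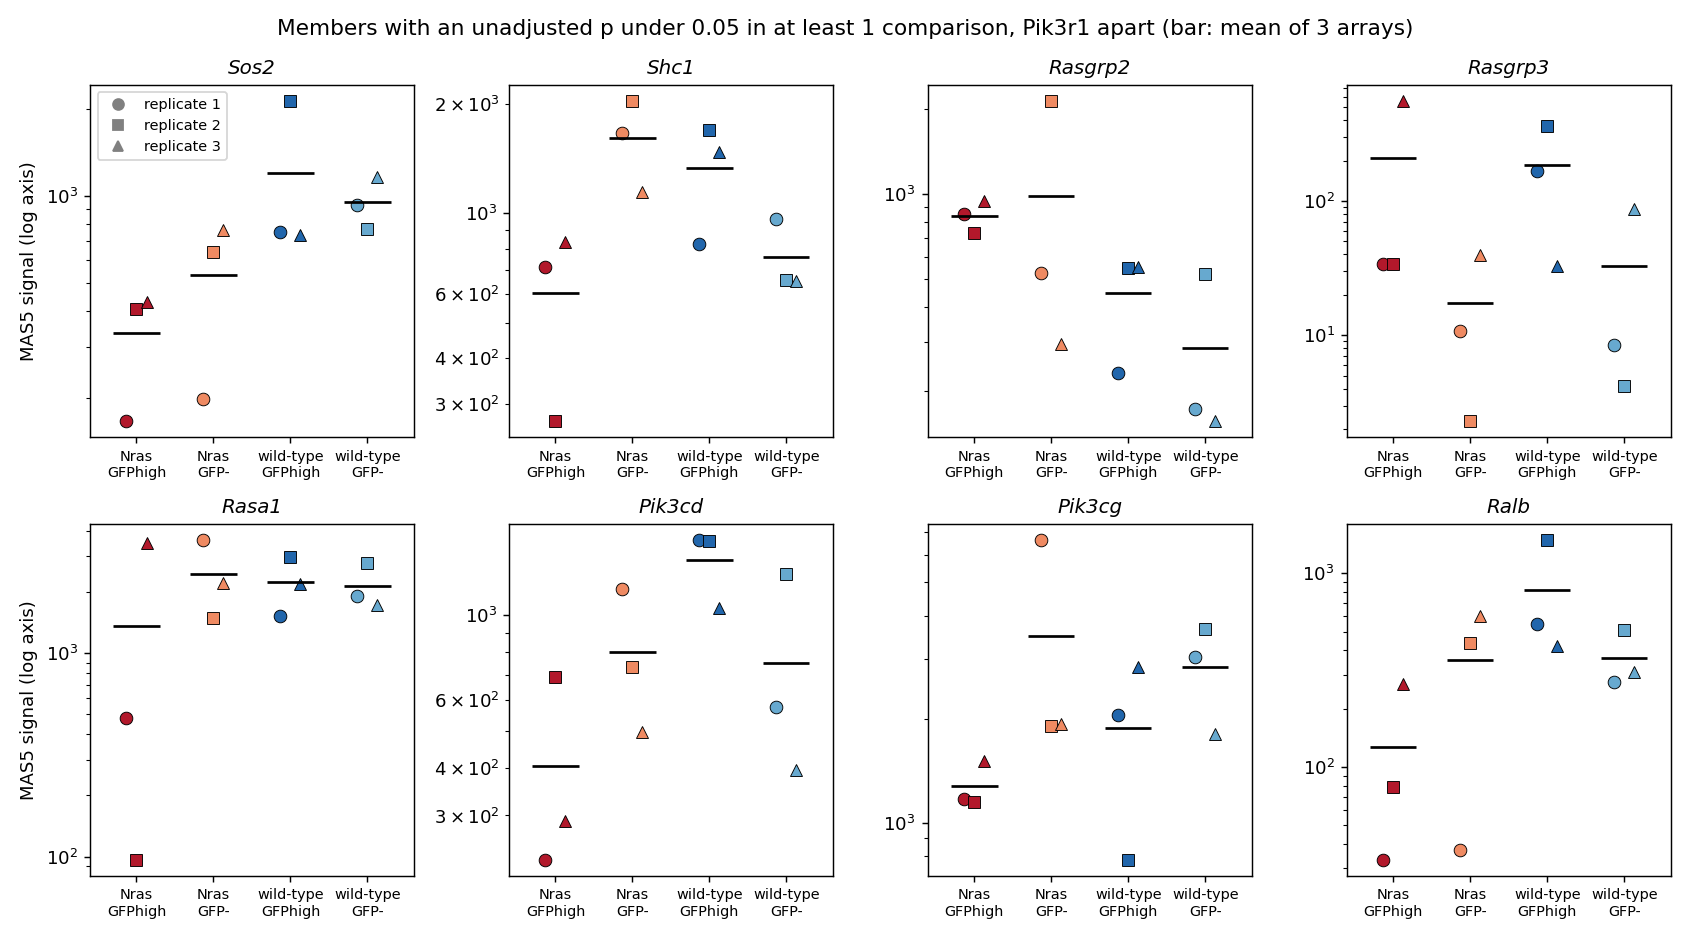
MAS5 signal on a log axis, by group and array, of the 8 members other than Pik3r1 with an unadjusted p under 0.05 in at least 1 comparison, with marker shapes for replicates and bars for the mean of 3 arrays. Sos2 and Ralb show their lowest points in replicate 1 of both Nras groups, and Rasa1 shows a range of 96.4 to 3499 units within Nras GFPhigh.

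The members differed in how closely replicate arrays read. The residual standard deviation of log2 signal within groups was 0.22 for Pik3r1, 0.27 for Rasa3, 0.45 for Ptpn11 and 0.46 for Pik3ca. At the other end it was 2.04 for Rgl1, 2.05 for Pik3cb, 2.12 for Rasgrp3 and 2.47 for Rala. The median was 0.93 over the 29 members and 1.04 over all genes tested, and Pik3r1 lay at the 2.26th percentile of all genes. The standard error of the difference averaged over genotypes accordingly ran from 0.13 for Pik3r1 to 1.20 for Rala, and was 0.88 or more for Ralgds, Rgl1, Pik3cb and Rasgrp3 as well.

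**Figure D4:**
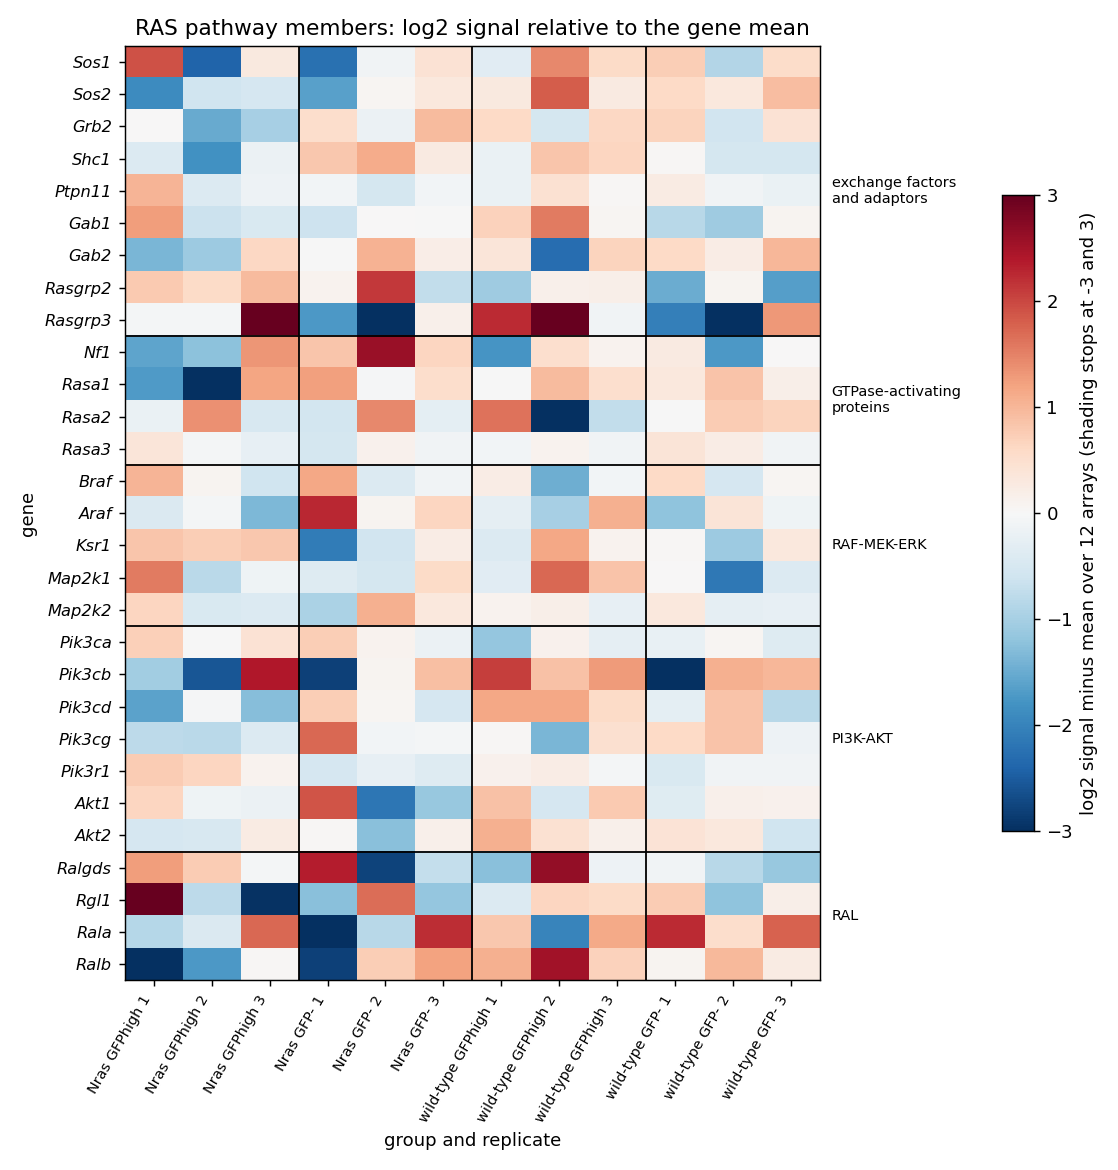
Log2 signal of the 29 tested members relative to each gene's mean over the 12 arrays, with genes as rows ordered by role and arrays as columns ordered by group, shading limited to -3 and 3. Pik3r1 is higher in each of the 6 GFPhigh columns than in each of the 6 GFP- columns, while Rgl1, Rala and Ralb vary from array to array within groups.

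Agreement between probe sets gave a second view of the same arrays. The 31 members on the array had 93 probe sets, of which 82 were tested, and 23 members had at least 2 tested. The probe sets of a gene all had the same sign for 10 of these 23 members in GFPhigh over GFP- in Nras HSCs, for 12 in wild-type HSCs and for 10 over both genotypes. For Nras over wild-type this was so for 7 members in GFPhigh, 9 in GFP- and 6 over both populations, and for the interaction for 11. Probe sets without any difference would also share a sign for some members, above all where few were tested. The share over all genes was not worked out, so these counts are a description. No member's probe set passed the adjusted threshold in any of the 7 comparisons. In Nras HSCs the members with all probe sets on 1 side included Grb2, Shc1, Pik3cg and Ralb, all lower in GFPhigh, and Rasgrp3, Rasa2, Pik3r1, Akt1, Rgl1 and Rala, all higher. For Rasgrp3 the probe set of highest mean signal passed the filter only through GFPhigh arrays, so its side follows partly from the filter. On replicate 1 of Nras GFP-, an uneven array, a Rasa2 probe set read 0.4 units and those of Rala 3.2 and 9.7. The chosen probe sets of Rasa2, Akt1 and Rala were higher in GFPhigh on the log2 scale only. Their mean signals were 701.5, 513.5 and 391.6 units in Nras GFPhigh, against 711, 673 and 447.2 in Nras GFP-.

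**Figure D5:**
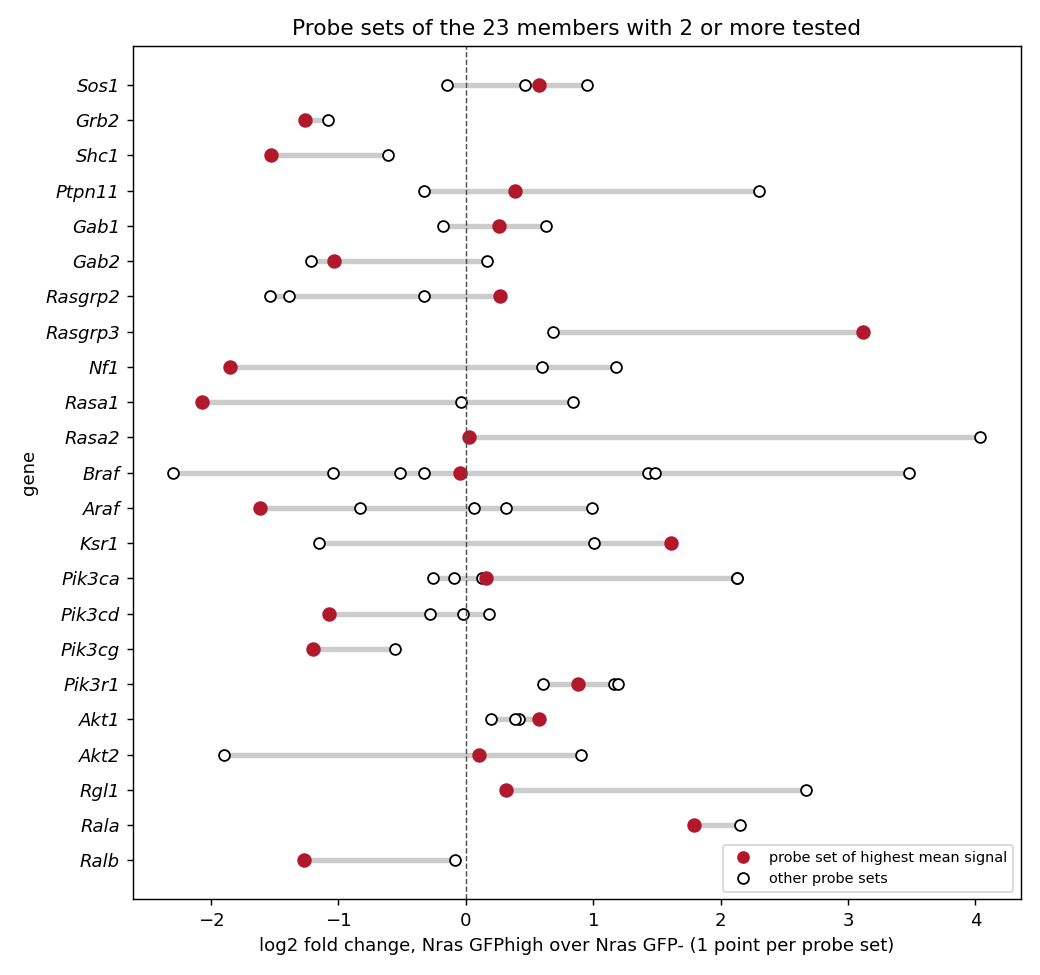
Log2 fold change, Nras GFPhigh over Nras GFP-, of each tested probe set of the 23 members with at least 2, with a filled point for the probe set of highest mean signal and open points for the others. The 8 probe sets of Braf span -2.30 to 3.48, whereas the 4 of Pik3r1 lie between 0.60 and 1.20.

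Of 94 other genes of the pathway, 80 were on the array and 67 were tested, and 0 of them passed limma's adjusted threshold in any comparison. With an unadjusted p under 0.05 stood 8 (3 higher, 5 lower) in Nras HSCs and 0 in wild-type HSCs for GFPhigh over GFP-, and 2, both lower, over both genotypes. For Nras over wild-type the counts were 8 (3 higher, 5 lower) in GFPhigh, 3 (1 higher, 2 lower) in GFP- and 7 (3 higher, 4 lower) over both populations, and 1, higher, for the interaction. As shares of the 67 genes these were 11.9% in Nras HSCs against 12.2% of all genes, 2.99% against 8.87% over both genotypes, 11.9% against 8.29% between genotypes in GFPhigh, 4.48% against 4.39% in GFP-, 10.4% against 7.78% over both populations, and 1.49% against 4.68% for the interaction. Nras itself read 2410 to 4275 units in Nras GFPhigh and 3530 to 3846 in Nras GFP-, against 1250.2 to 3374 in wild-type GFPhigh and 2881 to 3210 in wild-type GFP-, and its genotype difference over both populations was 0.39 ± 0.26 (adjusted p = 0.729 in limma). The arrays read total Nras RNA and do not separate the mutant allele. Dusp6, the ERK phosphatase that ERK signalling induces, read 1985, 2074 and 3086 units in Nras GFPhigh, against 1100.1, 1265 and 1247 in wild-type GFPhigh, without overlap. Its difference was 0.96 ± 0.39 there (adjusted p = 0.566 in limma) and 0.75 ± 0.28 over both populations (adjusted p = 0.597). Dusp6 belongs to a list of ERK feedback genes of which 10 were tested, and whether most of them shared its direction differed between comparisons. In GFPhigh 4 were higher and 6 lower in Nras, with a median of -0.61, and over both populations 4 were higher and 6 lower. In GFP-, where Dusp6 differed by 0.54 ± 0.39, 7 were higher and 3 lower, with a median of 0.17. Over both populations 2 of the 10 (20%) had an unadjusted p under 0.05 in limma, both higher, against 7.78% of all genes.

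Pebp1, an inhibitor of RAF binding to MEK, read 19958, 22112 and 13204 units in Nras GFPhigh, against 12039, 11389 and 10114 in wild-type GFPhigh, the lowest p of the pathway in that comparison (0.69 ± 0.19, adjusted p = 0.409 in limma). Within Nras HSCs the lowest p among these genes belonged to Etv5, a transcription factor that ERK signalling induces, at -2.12 ± 0.73 for GFPhigh over GFP- (adjusted p = 0.307), with 172.1, 988 and 1735 units in GFPhigh, against 3673, 2092 and 3165 in GFP-. In GFP- cells Rasal2, a RAS GAP, at -4.77 ± 1.62, the GM-CSF receptor subunit Csf2ra at -2.93 ± 1.18 and Etv4, an ERK-induced factor related to Etv5, at 2.58 ± 1.09 had the lowest p values between genotypes, with adjusted p = 0.983 each. The genotypes overlapped for each of these genes. Rasal2 read 3, 2.3 and 323.9 units in Nras GFP-, against 540.8, 306.6 and 274.4 in wild-type GFP-. Over both genotypes the receptors Epor and Flt3 differed by -2.36 ± 0.95 and -2.13 ± 0.97 between GFPhigh and GFP- cells (adjusted p = 0.531 and 0.557). Epor exceeded the array median only on GFP- arrays. Its lower GFPhigh signal therefore follows partly from the filter and is given as a description. Of the genes of lowest p not yet given, Crkl and Inpp5d differed by -1.17 ± 0.64 and -1.14 ± 0.63 in wild-type HSCs, and Rasgrf1 and Rapgef1 by 2.33 ± 0.95 and -0.96 ± 0.42 in Nras HSCs, GFPhigh over GFP-. Dusp4, another of the ERK feedback genes, differed by -2.08 ± 0.85 between genotypes in GFPhigh. Kit, the stem cell factor receptor, read 2228 to 4281 units on all 12 arrays, with an average difference between populations of 0.0017 ± 0.21.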

How the data were processed

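The authors deposited a linear intensity for each of 45101 probe sets, made with MAS5 per the submitters' processing notes, which give no version. The table carries no detection calls, so no call of presence was used, and the number of arrays limits the precision. On every array the mean after trimming 2% at each end was 500. No further normalization was applied before the log2 step, where a floor of 0.1 replaced the 3 zeros. Without 64 control probe sets, 34945 probe sets had 1 symbol, 932 several and 9160 none in the platform annotation, and the last 2 kinds were not used. All 12 arrays entered 1 limma model (limma 3.58.1 in R 4.3.3, with statmod 1.5.0) with a mean per group, an intensity trend and Benjamini-Hochberg adjustment over 12083 genes, two-sided. The fit was run on simulated data with independent values and the same spread on every array. That setting differs from these uneven arrays, so it does not show how the fit behaves on them. SE is the moderated standard error. Per-array values are given for members with an unadjusted p under 0.05 in any of 7 comparisons, or whose probe sets disagree in sign at that p. Values of further members are given where a sentence needed them, after they had been seen. Named by rule were, of the other pathway genes, Nras, Dusp6, Kit and the 3 of smallest p per comparison. The members and lists were chosen with earlier results of these data known. Replicate numbers in the labels were not used as a block in the reported fit. Alternatives changed the filter, scaling, pseudocount, probe set, trend, weights, block and arrays. Sequences are from RefSeq on GRCm38.p6, where 29 of the 32 members had an entry, and figures used Python 3.11.15 with matplotlib 3.10.9.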

Additional observations from a re-analysis of the deposited data

How the results depend on the processing

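No member passed under any alternative, except without replicate 3 of Nras GFPhigh, when 2 members (Pik3r1 and Rasa1) passed in GFPhigh over GFP- in Nras HSCs and 1 (Pik3r1) over both genotypes. Leaving out each array in turn therefore gave 0 to 2 members in Nras HSCs, 0 to 1 over both genotypes and 0 in the other 5 comparisons. Genes passing among all tested ranged over the alternatives from 0 to 161 in Nras HSCs, 0 to 4 in wild-type HSCs, 0 to 16 over both genotypes, 0 to 17 for Nras over wild-type in GFPhigh, 0 to 8 in GFP-, 0 to 5 over both populations and 0 to 1 for the interaction, with 161 reached without replicate 3 of Nras GFPhigh, and 12 without replicate 3 of Nras GFP-. The sign turned for Pik3r1, Nras over wild-type in GFPhigh, at -0.0393 under quantile normalization and -0.10 for another probe set, which gave -0.0305 for its interaction. It turned for Rasgrp2, Nras over wild-type, at -0.10 for the mean over probe sets, -1.71 and -1.74 for 2 other probe sets. It turned for Rasa1 in Nras HSCs, at 0.94 without the 4 uneven arrays and 0.84 for another probe set, and for Pik3cd with another probe set, at 0.78 in GFPhigh and 0.66 for the interaction. The cause was not tested. Members at an unadjusted p under 0.05 numbered 2 to 6 in Nras HSCs, 0 to 2 in wild-type HSCs, 2 to 5 over both genotypes, 3 to 6 for Nras over wild-type in GFPhigh, 0 to 2 in GFP-, 1 to 5 over both populations and 1 to 3 for the interaction when 1 array was left out. The members' median difference in Nras HSCs, 0.15, became -0.05 with array weights, -0.16 without the 4 uneven arrays and -0.34 without replicate 1 of Nras GFPhigh. The median for Nras over wild-type in GFP-, -0.16, became 0.18 with median centring, 0.06 with quantile normalization and 0.11 with the filter at the 75th percentile. The median for Nras over wild-type reached 0.08 in GFPhigh without replicate 2 of Nras GFPhigh and 0.17 over both populations with median centring, and that for GFPhigh over GFP- over both genotypes lay between -0.12 and 0.13, so none of these 5 medians has a settled sign. Those in wild-type HSCs (0.08 to 0.40) and for the interaction (-0.69 to -0.06) kept theirs. The Pik3r1 difference over both genotypes stayed positive under all 28 alternatives, from 0.34 to 1.18.

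Over 18 pairs of same-numbered samples the correlation of their deviations lay between -0.04 and 0.15. It was over 0.1 in 3 pairs, all of replicate 3, the arrays that also stood apart in Xist and Eif2s3y. In 12 pairs the own number was the best match, a hint from the data that the numbers share something. As not every pair was over 0.1, the numbers were not taken to pair samples. With the replicate number as a replicate block 0 members passed, and Pik3r1 over both genotypes stayed at 0.60 with an adjusted p of 0.265 in limma, while genes passing for Nras over wild-type over both populations numbered 0 rather than 1.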
